A study of Eriocheir sinensis with 6 samples.

Results

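GRM7 and moody are the names used for a pair of genes of the Chinese mitten crab (Eriocheir sinensis), evm.TU.CM024146.1.116 and evm.TU.CM024100.1.415. They were taken by these identifiers from the 28671 genes of the deposited expression table, of which 21314 belong to the genome annotation. Both were found and both were measured in all 3 RNA-seq libraries. The study picked them as candidate receptors in a comparison of post-molt with inter-molt muscle. Its candidates there had to change in RNA and to have an assigned peak of open chromatin that differed. The libraries of those periods were not analysed here. The libraries used here, Mu_E_1, Mu_E_2 and Mu_E_3, came from walking-leg muscle of 3 untreated, wild-type juvenile male crabs in the molt period, when the old exoskeleton is shed. One sample of each crab was divided between RNA-seq and ATAC-seq, which marks open chromatin by where a transposase cuts the DNA. The sample titles give the period as E, whereas the design text of the record calls it D, and the titles were followed. With a single period there was no comparison between groups, so the data give the level and the chromatin of each gene and their spread over crabs. The table pairs no gene names with its identifiers, so muscle, nerve and glial markers could not be looked up.

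G protein-coupled receptors sit in the cell membrane and pass a signal from outside the cell to G proteins within it. In mammals, GRM7 is the metabotropic glutamate receptor 7, which sits at presynaptic terminals and dampens transmitter release through inhibitory G proteins. Glutamate is also the main excitatory transmitter at the nerve-muscle contacts of crustaceans and insects. In Drosophila, moody is a receptor of the surface glia that seal the nervous system, where it acts on the cell junctions of the blood-brain barrier. Whole leg muscle holds fibres, nerve endings and other cells. In such bulk samples fewer cells of a type and less RNA per cell cannot be told apart.

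The study designed a primer pair for each transcript. These primers are shown because they are the sequences at hand that identify the 2 transcripts, and they carry no capitals because no part of them was singled out. Those of GRM7 are 24 bases long with 45.8% G and C, and those of moody are 20 bases long with 55% G and C. Their places in the gene models were not determined here.
GRM7 forward: ttgctctctgatctacctgaggat
GRM7 reverse: ttagcctctatcttgatgtcctgc
moody forward: caaaacagggtgcgttgagg
moody reverse: aagccttgccctgtaccttc

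Both genes are long and lie on the minus strand of different chromosomes of the assembly used by the study. GRM7 runs from 5155732 to 5223447, a span of 67.7 kb, and its start is the higher coordinate. The model length by which its expression was divided is 8844 bases, or 13.1% of the span, and is longer than that of 99.5% of the annotated genes. moody runs from 16787866 to 16867427, a span of 79.6 kb, but its model length is only 2125 bases, or 2.67% of the span. The spans are longer than those of 95.7% and 96.7% of the annotated genes. The positions of exons, introns and UTRs were not determined. No other listed gene overlaps either of them, so their fragments are not shared with an overlapping or antisense gene of the table.

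By FPKM, the expression of moody was about 5 times that of GRM7, a ratio that rests mostly on the model lengths. Both genes were highest in the same crab. Expression was taken as the deposited FPKM, the fragments per kilobase of gene model divided by a depth for each library. Within a library this allows levels of different genes to be compared per length. The depth implied by the deposited values was not the number of fragments counted in the library, so comparisons between crabs depend on it. The FPKM of GRM7 in the crabs Mu_E_1, Mu_E_2 and Mu_E_3 was 5.23, 2.28 and 1.47, with a mean of 2.99 ± 1.98 (SD, n = 3 crabs). moody was at an FPKM of 33.2, 9.37 and 7.38 in the same order, a mean of 16.7 ± 14.4 (SD, n = 3 crabs). The levels of the 2 genes did not overlap, since the lowest of moody, 7.38, lay above the highest of GRM7, 5.23. For scale, the median FPKM of the annotated genes was 0.988, 0.811 and 0.934, and 47.7% to 49.9% of them reached an FPKM of 1 in a library. Both receptors were above 1 in every library. GRM7 lay above 72.0%, 62.5% and 55.6% of the annotated genes, and moody above 91.1%, 80.1% and 77.8%. When ranked only among annotated genes at an FPKM of 1 or higher in each library, GRM7 lay above a mean of 17.5% ± 14.2 of them and moody above 59.0% ± 16.9 (SD, n = 3), against 63.4% and 83.0% among all annotated genes.

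The ratio of moody to GRM7 within a library does not depend on how the libraries were scaled. It was 6.35, 4.11 and 5.02 in the 3 libraries, with a mean of 5.16 ± 1.13 (SD, n = 3). On the log2(FPKM + 1) scale, which understates ratios of low genes, the difference was 2.46, 1.66 and 1.76, a mean of 1.96 ± 0.43. moody was higher in 3 of 3 libraries, and the exact two-sided sign-flip permutation test gave p = 0.25, the smallest value that 3 libraries allow. The fragments themselves were similar in number. They numbered 188, 78 and 145 for GRM7 and 287, 77 and 175 for moody, ratios of 1.53, 0.987 and 1.21. Most of the FPKM ratio thus comes from the model lengths, 8844 bases for GRM7 and 2125 for moody, which were not checked here.

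**Figure D1:**
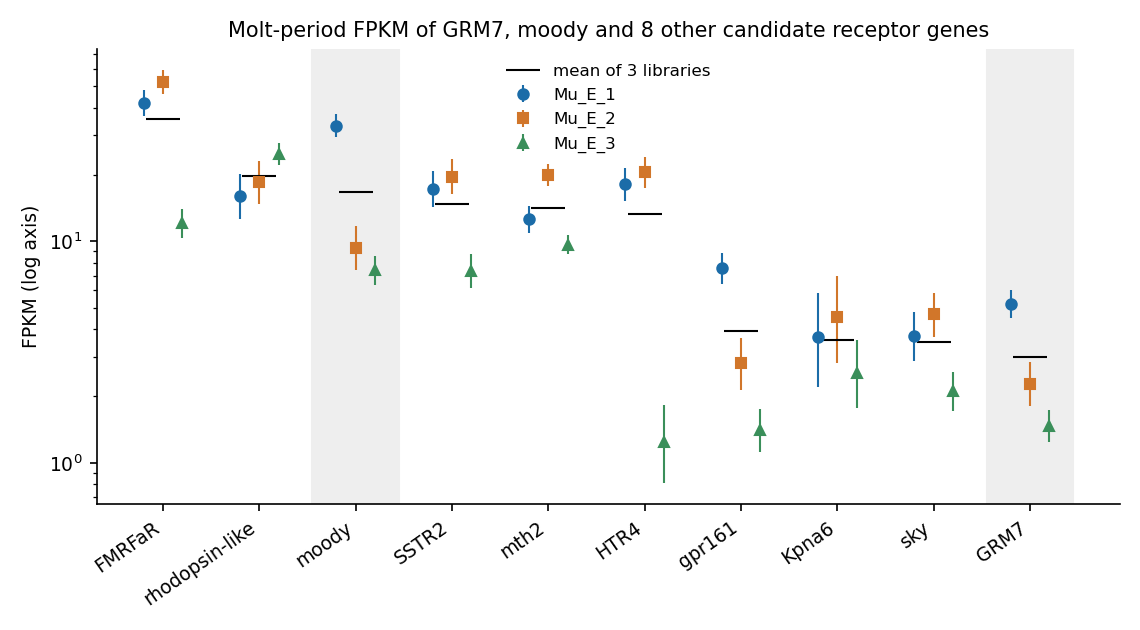
FPKM on a log axis in Mu_E_1, Mu_E_2 and Mu_E_3 (points, with exact Poisson 95% intervals of the fragments as bars) and their mean (black line) for GRM7, moody and 8 other candidate genes of the study. The points of moody (7.38 to 33.2) lie above those of GRM7 (1.47 to 5.23) in every library, and Mu_E_1 is the highest library for both.

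For both receptors Mu_E_1 stood above the other crabs by more than counting error. The fragments of each pair of libraries were compared by an exact binomial test, two-sided, at the depth implied by the authors' FPKM, with Benjamini-Hochberg adjustment over the 6 tests. These tests compare libraries and not conditions, and cover counting error only. For moody, the FPKM ratio of Mu_E_1 to Mu_E_2 was 3.55 (95% interval 2.75 to 4.62, adjusted p = 2.87e-27) and that to Mu_E_3 was 4.50 (3.72 to 5.46, adjusted p = 2.61e-56), both from exact tests. For GRM7 the same ratios were 2.29 (1.75 to 3.03, exact test, adjusted p = 2.36e-10) and 3.56 (2.85 to 4.45, adjusted p = 9.18e-30). Between Mu_E_2 and Mu_E_3 the ratio was 1.55 for GRM7 (1.16 to 2.06, exact test, adjusted p = 0.00258) and 1.27 for moody (0.957 to 1.67, adjusted p = 0.0840). Without Mu_E_1 the mean FPKM was 1.87 for GRM7 and 8.38 for moody.

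The order of Mu_E_2 and Mu_E_3 depended on the scaling of the libraries. FPKM times length came in whole steps for 100% of the values above 0, within 0.05 of a fragment, and gave 7088747, 7524721 and 7788537 fragments. The depth that the deposited FPKM imply was 0.573, 0.514 and 1.43 times these totals. On each library's own total, the ratio of Mu_E_2 to Mu_E_3 was 0.557 for GRM7 (0.417 to 0.738) and 0.455 for moody (0.344 to 0.599), so Mu_E_2 was then the lowest library for both. With a median-of-ratios scaling over 8648 genes it was 1.14 (0.851 to 1.51) and 0.929 (0.701 to 1.22), and neither passed the exact test (adjusted p = 0.467 and 0.637). Mu_E_1 remained above both other libraries under all 3 scalings. Its ratio to Mu_E_3 fell to 1.42 for GRM7 (1.14 to 1.78) and 1.80 for moody (1.49 to 2.19) on the libraries' own totals.

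The ratios of the 2 receptors between libraries were set beside those of 4890 annotated genes with 30 or more fragments in each library, which share the scaling. From Mu_E_2 to Mu_E_1 the log2 ratio was 1.83 for moody and 1.20 for GRM7, against a median of -0.05 over these genes. The ratio of moody exceeded that of 98.5% of the genes and lay beyond their central 95%, whereas that of GRM7 exceeded 95.2% and lay inside it. From Mu_E_3 to Mu_E_1 the log2 ratios were 2.17 and 1.83 against a median of 0.54, above 92.0% and 87.5% of the genes. Between Mu_E_2 and Mu_E_3 both receptors lay near the middle, at the percentiles 40.8 for moody and 51.6 for GRM7. Thus both genes stood on the same side of the median in each comparison with Mu_E_1, and moody farther out than GRM7.

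**Figure D2:**
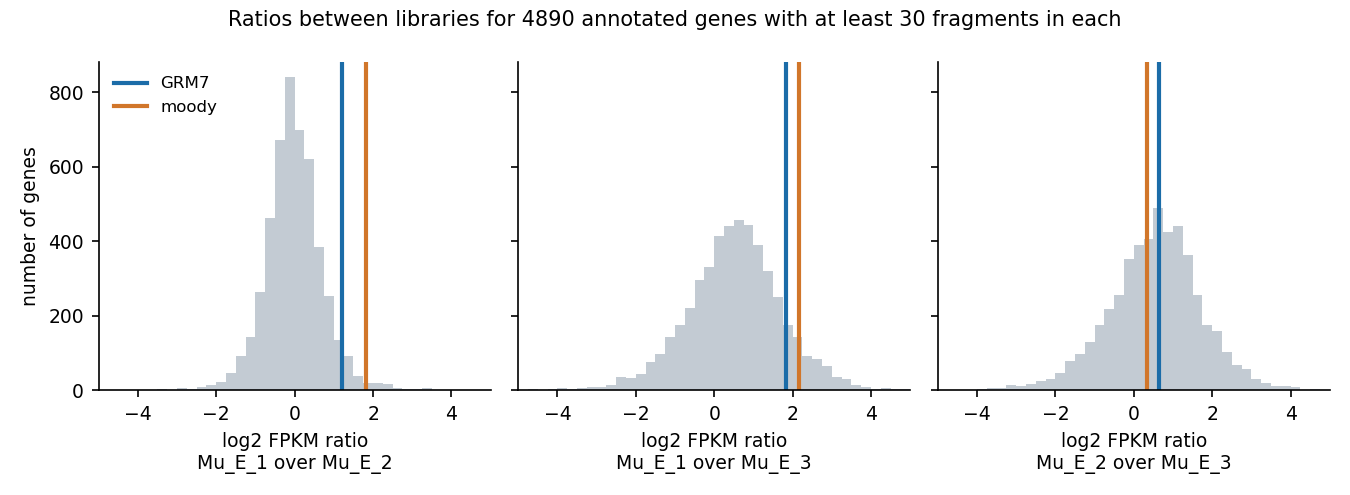
Histograms of the log2 FPKM ratio between each pair of libraries for the 4890 annotated genes with 30 or more fragments in each library (bars, number of genes), with GRM7 and moody as vertical lines. In the ratio of Mu_E_1 to Mu_E_2 the lines stand at 1.20 and 1.83, to the right of most genes, and in that of Mu_E_2 to Mu_E_3 they stand near the middle.

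Among 10 candidate genes of the study that are reported here, GRM7 had the lowest mean FPKM and moody the third highest. The others include FMRFaR, named for the receptor of FMRFamide neuropeptides, SSTR2, named for a somatostatin receptor, and HTR4, named for a serotonin receptor. After its structure predictions the study did not keep HTR4, the rhodopsin-like gene and sky as receptors. moody was above GRM7, gpr161, Kpna6 and sky in every library and below FMRFaR in every library. Against SSTR2, mth2, HTR4 and the rhodopsin-like gene its order changed between libraries. GRM7 was below moody, FMRFaR, mth2, SSTR2 and the rhodopsin-like gene in every library, and its order with gpr161, Kpna6, sky and HTR4 changed. It stood at rank 8, 10 and 8 of 10 in the 3 libraries, and moody at rank 2, 6 and 4. These ranks rest on the model lengths, which were not checked here, and that of GRM7, 8844 bases, is the longest of the 10. By total fragments GRM7, at 411, lay above SSTR2, HTR4, gpr161, sky and Kpna6. It lay below mth2, FMRFaR, moody and the rhodopsin-like gene. Several of the other candidates were chosen by the study with these libraries, so their levels are no independent background.

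The number of open-chromatin peaks called around the 2 genes differed. The ATAC-seq peak lists held 52473, 44610 and 49831 peaks in Mu_E_1, Mu_E_2 and Mu_E_3. Mu_E_2, with the fewest peaks, also had the fewest mapped ATAC-seq reads in the paper. GRM7 had 0 peaks between its start and its end in all 3 libraries, whereas moody had 7, 9 and 7. The region searched ran from 20 kb before each gene to 20 kb after it. It spanned 107.7 kb for GRM7 and 119.6 kb for moody, and held 1 peak per library for GRM7 and 7, 11 and 7 for moody. Peaks of the libraries that overlapped by at least 1 bp were joined into 1 place. This gave 1 place for GRM7, found in all 3 libraries, and 11 places for moody, of which 6 were found in all 3 libraries, 1 in 2 libraries and 4 in Mu_E_2 alone.

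**Figure D3:**
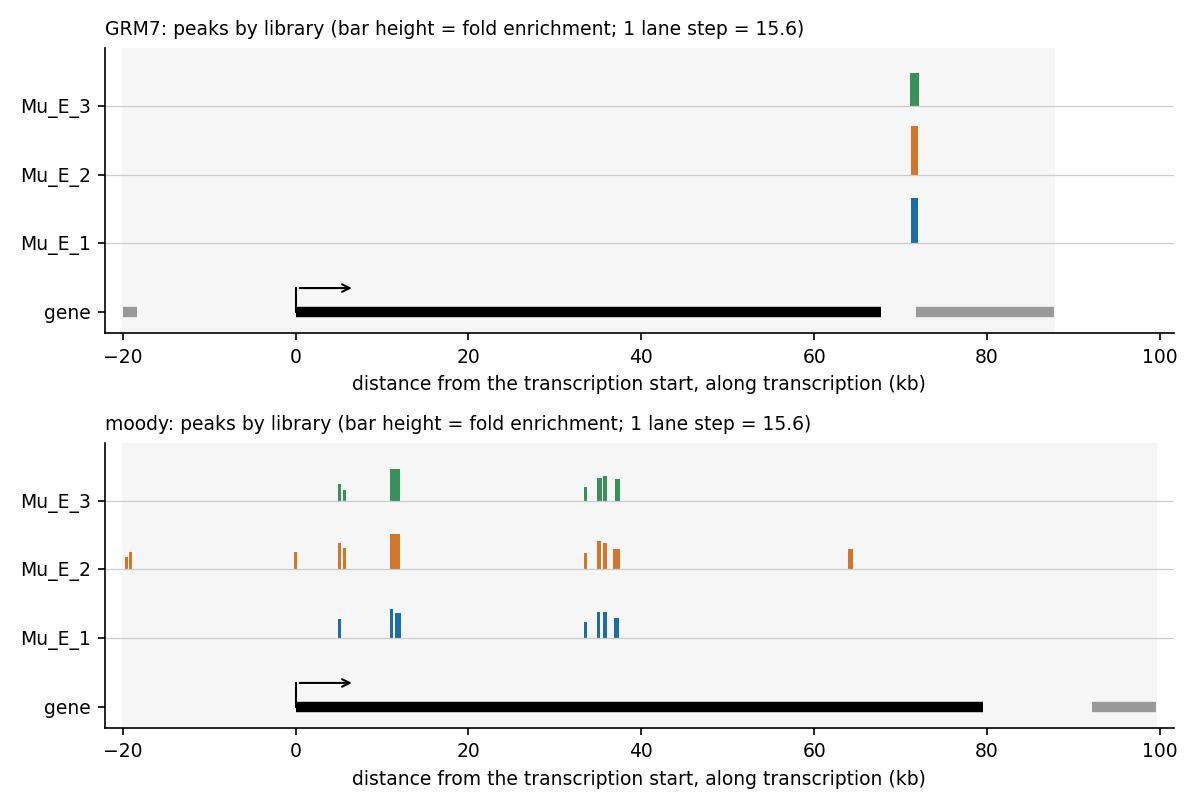
Peaks of each library along the searched region of GRM7 (top) and moody (bottom), by distance in kb from the transcription start in the direction of transcription, with the gene in black, neighbouring genes in grey and the fold enrichment as bar height (the narrowest peaks are widened to be visible). The only GRM7 peak lies past the gene's end, at the start of a neighbour, whereas most moody peaks lie inside the gene in 2 clusters.

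The single place near GRM7 belonged by position to another gene. It ran from 5151364 to 5152371 over the libraries, with the strongest summits at 5151710, 5151708 and 5151743. This is past the end of GRM7 and covers the start of the next gene of the same strand, evm.TU.CM024146.1.115, at 5151674. By the study's rule, a peak goes to the gene whose promoter (2 kb on each side of a start) it touches. Otherwise it goes to the nearest start. The place thus went to that neighbour, and 0 molt-period places of the region searched went to GRM7. The post-molt and inter-molt peaks by which the study picked GRM7 were not analysed here. The place was a strong peak, with a fold enrichment over the local background of 10.2, 11.1 and 7.37, a mean of 9.55 ± 1.94 (SD, n = 3 libraries). By q-value it exceeded 85.8% to 93.2% of the peaks of its library. The neighbour, which has no name in the table, was expressed at an FPKM of 11.4, 7.66 and 4.21. These came from 75, 48 and 76 fragments, so the size of the gap between Mu_E_1 and Mu_E_3 depends on the scaling of the libraries.

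The start of GRM7 lay in a stretch of 96.0 kb with no peak of any library. The nearest peak to the start was 24958, 24945 and 25052 bp away in Mu_E_1, Mu_E_2 and Mu_E_3, on the upstream side. There the promoter of evm.TU.CM024146.1.117 had a peak in all 3 libraries, although that gene was at an FPKM of only 0.541, 0.284 and 0.690. The background was the 8693 expressed genes, meaning annotated genes at an FPKM of 1 or higher in each library. Of these, 29.8% had no peak in the promoter or gene in any library, as GRM7, and 4.54% had no peak as near to the start as the nearest one of GRM7. Among the 464 expressed genes that span 50 to 100 kb, the shares were 8.62% and 7.97%, and 8.84% of them had at most 1 place in the region searched. Signal too weak to be called does not enter the lists, so they show that no peak was called, not that the chromatin was closed.

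At the start of moody a peak was called in 1 library of 3, Mu_E_2, which the paper lists with the fewest mapped ATAC-seq reads. In Mu_E_2 it ran from 16867385 to 16867650 and covered the start at 16867427, with the summit at 16867489, which is 62 bp upstream, a fold enrichment of 4.03 and a q-value weaker than that of most peaks, at the percentile 22.9. In Mu_E_1 and Mu_E_3 the nearest peak was 4934 and 4899 bp inside the gene. A promoter peak in exactly 1 library was found for 7.71% of the annotated genes, and in Mu_E_2 alone for 2.26%. One was found in all 3 libraries for 28.6% and in at least 1 library for 42.0%. Among the expressed genes the shares were 7.78% in exactly 1, 45.1% in all 3 and 59.4% in at least 1 library, and among the expressed genes of 50 to 100 kb 53.4% had one in all 3. The library with the start peak, Mu_E_2, was not the one with the highest moody level, which was Mu_E_1 at an FPKM of 33.2.

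Inside moody, the shared places fell into 2 parts. The first part lay 5.07 to 11.3 kb after the start. Its place at 5.07 kb had a fold enrichment of 4.21, 5.98 and 3.72 in Mu_E_1, Mu_E_2 and Mu_E_3. Its place at 11.3 kb ran from 16855251 to 16856504 and was the strongest of the gene, at 6.64, 7.98 and 7.27, a mean of 7.30 ± 0.67 (SD, n = 3 libraries). It was called as 2 peaks in Mu_E_1 and as 1 wide peak of 1201 and 1192 bp in the other libraries. Beside the first place, a further place 5.63 kb after the start was found in Mu_E_2 and Mu_E_3 but not in Mu_E_1.

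The second part lay deep in the gene, 33.6 to 37.3 kb after the start, and held 4 shared places between 16829857 and 16834025. Their summits recurred closely: within 18 bp at 33.6 kb, 56 bp at 35.1 kb, 32 bp at 35.8 kb and 172 bp at 37.3 kb. The fold enrichment was 3.65, 3.65 and 3.04 at the first of these, a mean of 3.45 ± 0.35. It was 5.77 ± 0.63 at the second, 5.86 ± 0.25 at the third and 4.68 ± 0.19 at the fourth (SD, n = 3 libraries). The places at 35.1 and 35.8 kb had q-values beyond those of 79.0% to 84.7% of the peaks of their library. The spread over libraries was thus small beside the differences between the weakest place, at 33.6 kb, and its neighbours. When peaks with a q-value above 1e-05 were left out, 5 of the 6 shared places were still found in all 3 libraries.

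**Figure D4:**
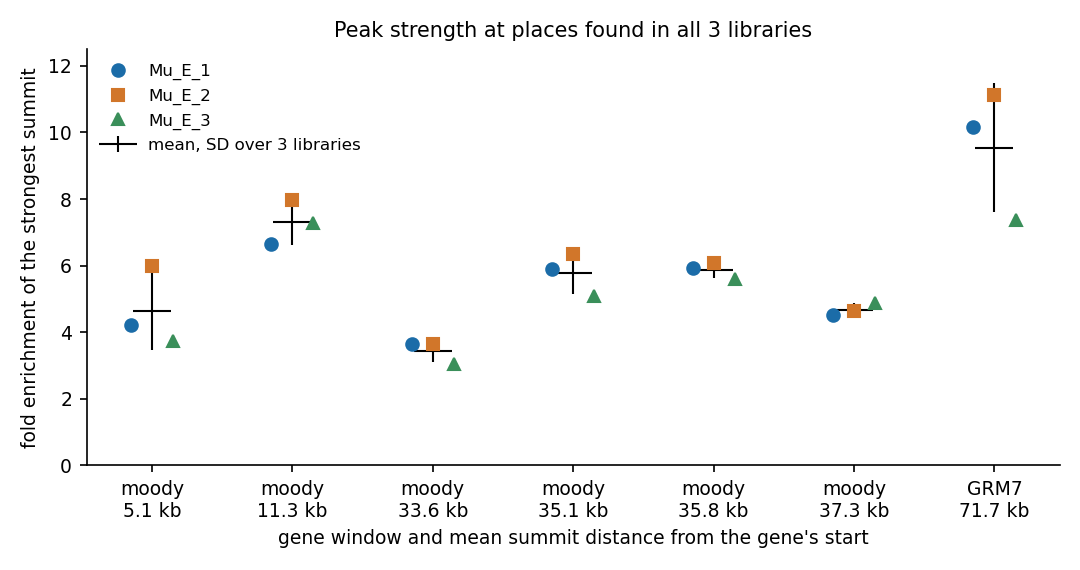
Fold enrichment of the strongest summit at each place found in all 3 libraries, for moody (6 places, by mean distance of the summits from the start) and GRM7 (1 place), with the mean and SD as black lines. The moody place at 11.3 kb is the highest of that gene in every library, and the GRM7 place, at a neighbour's start, is above it by its mean of 9.55.

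The number of shared places inside each gene was read against the 464 expressed genes of 50 to 100 kb. Their median was 2 shared places, the quartiles were 1 and 4, and the highest had 15. GRM7, with 0, was among the 22.6% of these genes that had none. moody, with 6, had more than 82.3% of them, and 17.7% had 6 or more. A run of 4 shared places within 5 kb inside the gene, a measure chosen after the moody peaks were seen, occurred in 1.72% of the 464 genes and in 0.145% of all annotated genes. Both shares include moody itself, and most annotated genes are shorter, so they are a description only. Of the 11 places around moody, 10 went to moody by the study's rule. The last, 64.1 kb after the start and found in Mu_E_2 alone, went to the neighbour evm.TU.CM024100.1.414, which was listed at 0 in all 3 libraries.

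**Figure D5:**
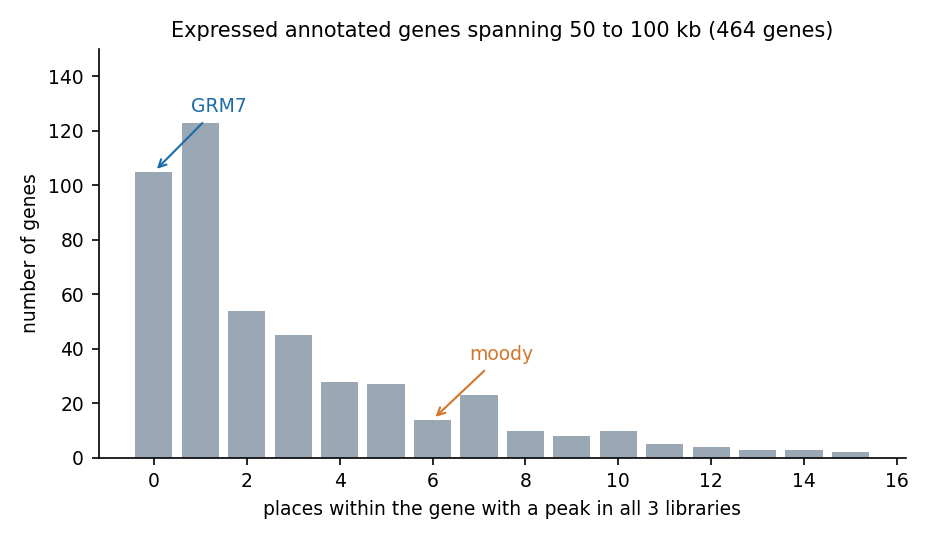
Number of places inside the gene with a peak in all 3 libraries, for the 464 expressed genes spanning 50 to 100 kb (bars, number of genes). GRM7 stands at 0 and moody at 6, while the median gene has 2.

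The peaks inside moody and its RNA were also set side by side by crab. The ATAC-seq and RNA-seq libraries of the same number were taken as the same crab, and that numbering was not checked here. In Mu_E_1, where the FPKM of moody was 33.2, the gene held 7 peaks over 3018 bp. In Mu_E_3, where the FPKM was 7.38, it held 7 peaks over 3586 bp. In Mu_E_2, at an FPKM of 9.37, it held 9 peaks over 4751 bp. At none of the 6 shared places was the fold enrichment of Mu_E_1 above that of both other libraries. Fold enrichment is set against each library's own background, and the medians of the lists ran from 3.91 to 4.34, so these values are a description and were not tested.

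Of the 8 other candidate genes, 4 had a promoter peak in all 3 libraries and 3 had none in any library. For scale, 45.1% of the expressed genes had one in all 3 libraries and 59.4% in at least 1. The study chose several of these candidates with these libraries, so their peaks are no independent background. FMRFaR was the only other candidate with no peak in its promoter or gene in any library, as GRM7, and it spans 2.93 kb. The longest other candidates, gpr161 at 55.2 kb and HTR4 at 53.5 kb, each had 1 shared place inside the gene, against 6 in moody and 0 in GRM7. Counting places found in any library, HTR4 had 10 and gpr161 had 4, against 9 in moody and 0 in GRM7. A promoter peak in 1 library only was found for HTR4, as for moody.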

How the data were processed

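Each of 3 molt-period crabs gave 1 RNA-seq and 1 ATAC-seq library of leg muscle. The authors aligned RNA reads with Hisat2 2.0.5, counted fragments with featureCounts 1.5.0-p3 and deposited FPKM. They aligned ATAC-seq reads with BWA and ran MACS2 on each library alone, with duplicates kept. The deposited lists give the authors' fold enrichment (a ratio to local background), −log10 of the p-value and q-value, and a score, which was not used. A shift of reads for the transposase, the strand setting and the annotation version are not given in the sources used here.

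Fragments were recovered from FPKM and length (tolerance 0.05) and used for depth, exact Poisson 95% intervals and exact binomial tests, with no count model. ATAC-seq read depth was not used. All 4 files were read with Python 3.11.15, numpy 2.4.6, pandas 2.3.3, scipy 1.17.1 and statsmodels 0.14.6, and plotted with matplotlib 3.10.9. Recovery of fragments, promoter calls and the exact binomial test were each tested on simulated data, and gave back what had been put in.

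The members and lists were chosen with earlier results of these data known. Named genes are GRM7, moody, genes within 20 kb of them, the study's other candidates, of which 1 is not reported here, and the 3 nearest in pattern to each. Alternatives covered scaling, pseudocount, gene set, peak threshold, overlap, window, promoter width and the omission of 1 library at a time. The libraries' own totals in the binomial tests and the omission of libraries in the percentiles were added later, once results had been seen.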

Additional observations from a re-analysis of the deposited data

How the results depend on the processing

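The difference between GRM7 and moody kept its direction in all alternatives, and their numbers of shared places stayed within 1.5 times the count. Their mean levels stayed within the SD of the 3 libraries. Leaving out 1 of 3 libraries cannot move a mean beyond that SD, so for such omissions this shows nothing. Without Mu_E_1 the mean FPKM fell from 2.99 to 1.87 for GRM7 and from 16.7 to 8.38 for moody. The mean difference on the log2 scale ran from 1.71 to 2.11 with 1 library left out, was 2.30 with a pseudocount of 0.1 and 2.34 with none. Among the expressed genes alone (FPKM of 1 or higher in each library), the mean percentile fell to 17.5 for GRM7 and 59.0 for moody, from 63.4 and 83.0, because low genes are left out. The share of annotated genes with a promoter peak in all 3 libraries, 28.6%, was 23.9% with 1 kb promoters, 32.7% with 3 kb promoters, 22.9% with a q-value of 1e-05 or less and 26.0% with all listed genes, and ran from 29.6% to 31.7% with 1 library left out. Of the 6 tests between libraries, 5 passed at the authors' depth, 4 with the median of ratios and 6 on the libraries' own totals. These counts do not mean the same direction. The ratio of Mu_E_2 to Mu_E_3 for GRM7 passed at 1.55 at the authors' depth and at 0.557 on the libraries' own totals. No paired analysis was possible because only 1 period was measured and the numbers link RNA-seq with ATAC-seq, which are not compared in a test. Each library had 77 to 287 fragments per receptor. On the libraries' own totals the ratio of Mu_E_1 to Mu_E_3 for GRM7, 1.42, had a counting interval of 1.14 to 1.78, and 3 crabs limit what can be said of the period.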

Other observations

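The annotated genes whose FPKM pattern over the 3 libraries was nearest to each receptor were found by the Euclidean distance of log2(FPKM + 1) values less their own mean, among genes that had 30 or more fragments in each library. For GRM7 they were evm.TU.CM024166.1.405, evm.TU.CM024144.1.289 and evm.TU.CM024167.1.203, at distances of 0.0211, 0.0328 and 0.0436. The first of them was at an FPKM of 11.9, 5.69 and 4.01 in Mu_E_1, Mu_E_2 and Mu_E_3. For moody they were evm.TU.CM024162.1.319, evm.TU.CM024139.1.135 and evm.TU.CM024140.1.242, at 0.0526, 0.113 and 0.122. The first of them was at an FPKM of 160, 48.9 and 37.3. Within a distance of 0.25 there were 113 of 4889 genes for GRM7 and 15 for moody. moody itself was 0.614 from GRM7, at rank 814 by distance. The scale understates ratios of low genes such as GRM7, so the distances depend on the level as well as the pattern. A likeness over 3 libraries is a description only, and none of these 6 genes has a name in the table.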
